A study of Homo sapiens with 6 samples.

Results

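The RBM genes are a set of human genes named for the RNA-binding motif, and they were followed here in OVCAR3, an established line derived from a high-grade serous ovarian adenocarcinoma. Members were taken by name: every locus with a symbol of the form RBM plus a number, with or without a further letter, together with RBMX, RBMX2, RBMXL1, RBMS1, RBMS2 and RBMS3, and without RBM47. This gave 42 genes among the 47577 loci of the table. PolyA RNA was sequenced from 3 samples of OVCAR3 cells treated for 6 h with DMSO, the solvent, and from 3 samples treated for 6 h with 200 nM THZ531, a covalent inhibitor of the transcriptional kinases CDK12 and CDK13. The titles of the treated samples name THZ531, whereas a treatment note of all samples names THZ1 at the same dose, and the samples were assigned to THZ531 by their titles. All cells were of 1 line and grew in the same medium, and no source says whether the 3 samples of a group came from separate cultures, so p-values measure the spread between these samples, which may be technical.

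RBM proteins carry 1 or several RNA recognition motifs, a fold that binds short stretches of single-stranded RNA, and most of them act in the nucleus on newly made transcripts. Some choose splice sites (RBM5, RBM10, RBM17, RBM39), some are parts of the spliceosome (RBM22, RBMX2, RBM41), and others bring an enzyme to RNA, such as the writer of N6-methyladenosine (m6A, a methyl mark on adenosine in RNA) or the nuclear exosome, which degrades RNA. CDK12 and CDK13 phosphorylate the tail of RNA polymerase II during elongation, and their inhibition is known to disturb elongation, splicing and the choice of the polyadenylation site. The comparison of DMSO with THZ531 therefore asked how the reads counted on these RNA-binding genes stood after a short block of both kinases. A total of reads per gene does not tell full-length mRNA from transcripts that end early or keep an intron. A rise or fall below is one of this total. In bulk samples, fewer cells expressing a gene and less of its RNA per cell cannot be told apart.

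Several members are close copies of each other, and this bears on how reads can be assigned. The most alike pair was RBMX and RBMXL1, whose coding sequences were identical at 97% of the longer one in GENCODE transcripts, followed by RBM4 and RBM4B at 86.3%. The other 13 pairs examined lay between 20.7% for RBM7 and RBM26 and 68.7% for RBMS1 and RBMS3, and shared no stretch of 150 bases. RBM4 and RBM4B shared 49 windows of 150 bases, 3.36% of those in the RBM4 transcript, and RBMX and RBMXL1 shared 3. Their first 120 coding bases are shown because the copies are nearly identical there, with the bases that differ within a pair in capitals.
RBM4: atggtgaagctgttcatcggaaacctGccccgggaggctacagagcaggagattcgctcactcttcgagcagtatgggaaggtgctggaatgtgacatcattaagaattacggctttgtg
RBM4B: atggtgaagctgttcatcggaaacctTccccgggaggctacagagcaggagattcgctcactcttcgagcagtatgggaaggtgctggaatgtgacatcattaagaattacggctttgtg
RBMX: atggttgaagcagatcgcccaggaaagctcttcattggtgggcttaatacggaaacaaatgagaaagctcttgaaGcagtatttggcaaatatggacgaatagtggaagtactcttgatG
RBMXL1: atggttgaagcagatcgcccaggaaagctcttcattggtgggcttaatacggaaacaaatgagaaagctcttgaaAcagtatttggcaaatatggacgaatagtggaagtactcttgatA
Over these 120 bases RBM4 and RBM4B differed at 1 base and RBMX and RBMXL1 at 2. For RBM4 and RBM4B this stretch is more alike than the whole, where 942 of 1071 aligned coding bases were identical. Where a read fits both copies, the values of these 4 genes are uncertain. RBMXL1 in addition was counted together with KYAT3 as a single locus, as RBM12 was with CPNE1.

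The promoters of 4 regulated genes are shown next, a pair that moved up and a pair that moved down, each of them well expressed in DMSO and a member of a compared pair. They are not the 4 that moved most. The RefSeq table (GRCh38.p14) held a promoter for 38 of the 42 genes, and none for RBM12B, RBM39, RBM43 and RBM48. Printed are the bases from 250 to 61 before the start site, in the direction of the gene, for RBM15B (chr3:51391035-51391224, plus strand) and RBM23 (chr14:22919210-22919399, minus strand), which were lower in THZ531, and for RBM14 (chr11:66616380-66616569, plus strand) and RBM27 (chr5:146203355-146203544, plus strand), which were higher. Capitals mark the CCAAT box, the GC box in its form GGGCGG, and the E-box in its form CACGTG, each on either strand.
RBM15B: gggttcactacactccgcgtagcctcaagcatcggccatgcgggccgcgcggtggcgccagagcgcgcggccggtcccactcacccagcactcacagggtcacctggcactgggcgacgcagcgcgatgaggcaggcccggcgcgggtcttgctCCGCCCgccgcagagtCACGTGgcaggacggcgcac
RBM23: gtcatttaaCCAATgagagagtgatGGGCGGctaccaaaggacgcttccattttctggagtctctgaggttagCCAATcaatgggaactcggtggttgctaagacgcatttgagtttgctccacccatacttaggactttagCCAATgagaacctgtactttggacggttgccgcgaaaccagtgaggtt
RBM14: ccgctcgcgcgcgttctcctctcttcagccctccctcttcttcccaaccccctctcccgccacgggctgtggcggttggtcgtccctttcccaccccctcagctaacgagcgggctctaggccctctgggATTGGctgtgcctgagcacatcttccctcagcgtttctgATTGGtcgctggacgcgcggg
RBM27: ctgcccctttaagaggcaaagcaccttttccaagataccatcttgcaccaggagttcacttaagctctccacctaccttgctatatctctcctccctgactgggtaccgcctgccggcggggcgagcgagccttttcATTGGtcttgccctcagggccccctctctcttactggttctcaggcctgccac
In the whole window of 300 bases (250 before the start to 50 after it), searched on both strands, CCAAT stood in 20 of the 38 RBM promoters (52.6%) against 34.6% of all 35116 promoters, GGGCGG in 23 (60.5%) against 45%, and CCGGAAG in 9 (23.7%) against 10.3%. TATAAA was found in 3 RBM promoters (7.89%) against 11.5% of all, and TGACGTCA and CACGTG in 3 each (7.89%) against 1.85% and 7.26%. None of these 6 motifs contains another. Of the 9 genes that rose, 5 had CCAAT and 5 had GGGCGG in the window, and of the 4 genes that fell and had a promoter in the table, 1 had CCAAT and 3 had GGGCGG. These are matches of letters, with no test attached to them. The 35116 promoters were not limited to genes expressed in OVCAR3, whereas all but 2 of the 38 RBM promoters belong to tested genes, so the shares are not of like sets.

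The libraries held between 53054048 and 70986130 reads counted on genes, and the deposited values were those reads divided by a DESeq2 size factor per library, called the normalized value from here on. The ovarian and epithelial markers were present: PAX8, a transcription factor of the Müllerian lineage, stood at 11272 ± 545 in DMSO (SD, n = 3), KRT7 at 130310, EPCAM at 21222, and of the 10 markers FOLR1 was the lowest at 103. Markers of other cells were low for PTPRC (33.6, blood cells), PECAM1 (63.9, endothelium), COL1A2 (37.4) and DCN (1.59), while COL1A1 was at 995 ± 47.5 and rose to 2190 ± 141 (n = 3), and the part of these markers in the RBM results was not tested. PAX8 fell to 1241 ± 121. Of the 42 RBM genes, 40 reached a normalized value of 10 in 3 or more libraries and were tested. The other two are germ cell genes: RBM44 had at most 5 reads in a library, and RBM46 had 0 reads in all 6, which allows a normalized value of up to 2.38 to 3.78 per library at 3 reads, counting error only.

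In DMSO the tested members spanned from 6.99 for RBM24 to 21827 for the joint locus of CPNE1 and RBM12. Ranked per kilobase of transcript, which was possible for the 31 tested members whose locus matched its GENCODE transcript within 100 bases at both ends, the highest levels in DMSO were those of RBM42 (2893 ± 168 normalized reads per kilobase, SD, n = 3), RBM38 (2443 ± 47.7), RBM8A (2242 ± 78.2), RBM39 (2175 ± 27.2), RBM34 (2130 ± 49.4) and RBM14 (1996 ± 31). RBM8A, RBM39 and RBM34 did not differ from each other beyond the sum of their SDs. In THZ531 the order began with RBM14 (5125 ± 97.3 per kilobase, rank 1 against rank 6 in DMSO), followed by RBM38 (2870 ± 43.1), RBM42 (2807 ± 61) and RBM39 (2735 ± 44.2), where RBM42 did not differ from either neighbour beyond the sum of their SDs. RBM15B moved from rank 13 to rank 22 (905 to 328 per kilobase). The plot of all values shows how far the groups were apart for each gene.

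**Figure D1:**
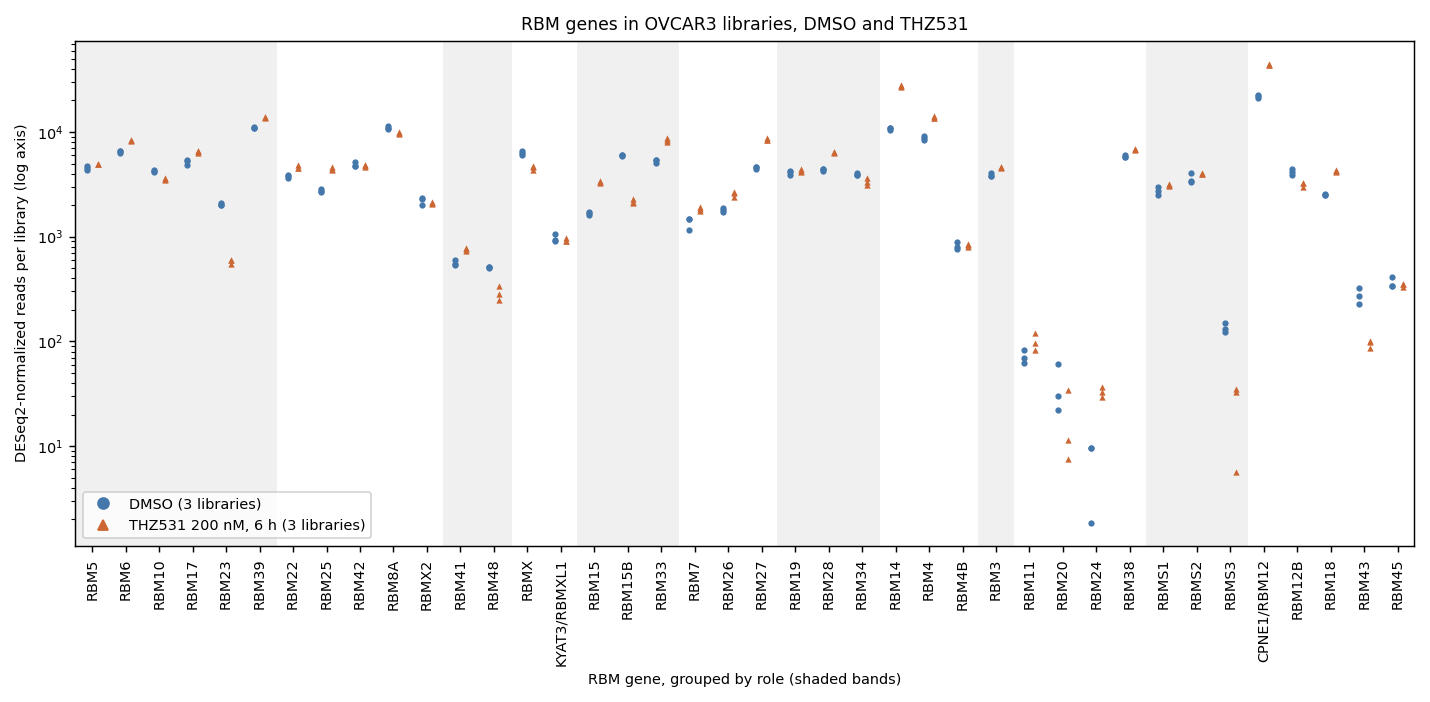
Normalized reads (log axis) of the 40 tested RBM genes in each of the 3 DMSO libraries (circles) and the 3 THZ531 libraries (triangles), grouped by role in alternating shaded bands. Libraries of 1 group lie close together for most genes of high level, and RBM14 (10712 to 27507) and RBM15B (5994 to 2172) are separated clearly. RBM20 has few reads and scatters widely in both groups, as do RBM24 in DMSO and RBMS3 in THZ531.

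A gene counted as regulated where limma gave a 1.5-fold or larger difference together with an unadjusted p not above 0.05. A log2 fold change is the difference of the mean log2(value + 1) of THZ531 and DMSO. The added 1 draws the change of low genes toward 0, but a mean of logs can still be larger than the change that count tools give. By this rule 15 of the 40 RBM genes (37.5%) were regulated, against 39.5% of all 17568 loci tested. Of these, 9 rose (22.5%, against 15.7% of all loci) and 6 fell (15%, against 23.9%). One of the 9, RBM24, passed the minimum of expression only through its THZ531 libraries, so it could hardly be tested without being higher there. The 3 DMSO and the 3 THZ531 values did not overlap for 32 of the 40 genes (80%), against 71.7% of all loci, and for 32 genes (80%) the adjusted p was not above 0.05, whatever the fold change, against 68.6% of all loci. The threshold of 1.5 separated RBM4 (1.57-fold) and RBM33 (1.6-fold), just inside, from RBM28 (1.46-fold) and RBM26 (1.43-fold), just outside.

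The direction of the set depended on the scaling of the libraries. With the deposited values, 25 RBM genes were above 0 and 15 below, and the median log2 fold change was 0.20, against -0.01 over all loci. The sum of the deposited values was higher in THZ531, so that scaling all libraries to the same total moved the median of all loci to -0.25. Scaling to RPL34, a ribosomal protein gene used as reference in PCR, moved that median to -0.50. The RPL34 scaling rests on this gene alone. It takes RPL34 as unchanged, although RPL34 was higher in THZ531 with the deposited values. The median of the RBM genes moved along, to -0.04 and -0.29, and stayed 0.20 to 0.21 above that of all loci under each of the 3 scalings. With the same total 5 RBM genes rose and 8 fell, against 9.38% and 32% of all loci, and with RPL34 2 rose and 11 fell, against 6.14% and 42.8%. RBM14 was called higher, and RBM15B, RBM20, RBM23, RBM43, RBM48 and RBMS3 lower, under the deposited scaling, the same total, the upper quartile and RPL34. RBM24 was also called higher under each, with the limit on its test given above, and was not tested at a minimum of 50. RBM4, RBM18, RBM25 and RBM33 were no longer called with the same total or RPL34, and RBM15, RBM27 and the CPNE1 and RBM12 locus were no longer called with RPL34.

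**Figure D2:**
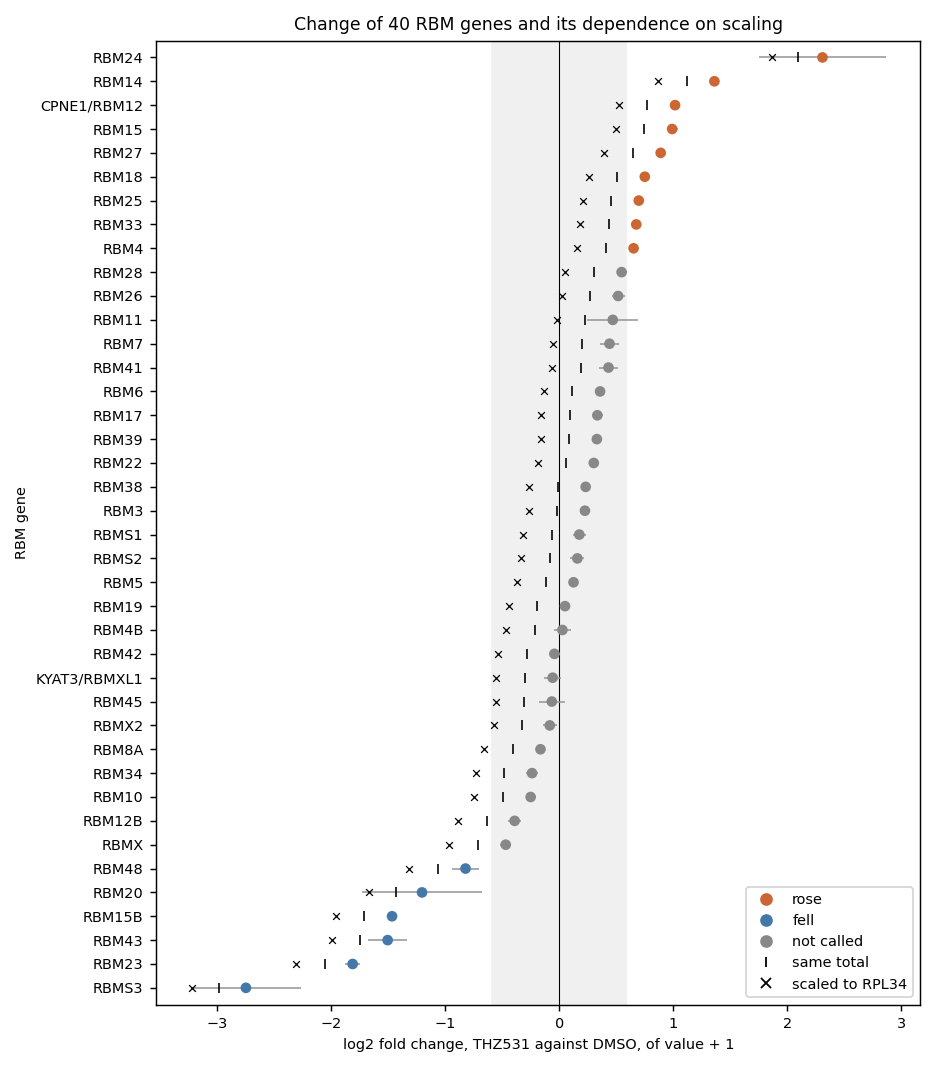
Log2 fold change of each tested RBM gene, THZ531 against DMSO, on the log2(value + 1) scale with its standard error (points and bars, n = 3 per group), coloured by the call; bars mark the value with libraries scaled to the same total and crosses that scaled to RPL34, and the shaded band covers fold changes under 1.5. The order of the genes is the same under the 3 scalings while the zero line moves, and RBM14 and RBM24 at the top and RBMS3, RBM23, RBM43, RBM15B, RBM20 and RBM48 at the bottom lie outside the band under each.

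The m6A group held a pair of paralogs that moved in opposite directions, and its 3 members were all called, beside 39.5% of all loci. RBM15 and RBM15B bind the writer complex through WTAP and guide it to its target RNAs. RBM15 (chr1:110338506-110366872, hg38) had normalized values of 1689, 1709 and 1613 in DMSO and of 3311, 3370 and 3271 in THZ531. All THZ531 values were above all DMSO values, and the rise was 1.99-fold (log2 fold change 0.99, SE 0.049, adjusted p = 5.85e-11). RBM15B (chr3:51391285-51397908) stood at 5943, 6004 and 6034 in DMSO and at 2270, 2130 and 2115 in THZ531, again with no overlap, a fall of 2.76-fold (log2 fold change -1.47, SE 0.045, adjusted p = 3.2e-13). Within each library the RBM15 to RBM15B ratio was therefore between -1.90 and -1.81 on the log2 scale in DMSO and between 0.54 and 0.66 in THZ531, so the paralog with more reads changed from RBM15B to RBM15. This ratio does not depend on the scaling of the libraries, and it shifted by 2.46 (5.48-fold, two-sided exact permutation test p = 0.1, the smallest that 3 against 3 allows). RBM15B has 1 exon in its GENCODE transcript, and 2042 of its bases lie within DCAF1 on the other strand, which was at 4726 in DMSO and 4186 in THZ531. RBM33, which binds m6A-marked RNA and brings the eraser ALKBH5 to it, was at 5018, 5355 and 5359 in DMSO and at 8733, 8382 and 8015 in THZ531. The groups were apart and RBM33 rose 1.6-fold (adjusted p = 1.24e-09), a call that was lost with the same total.

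Of the 7 other genes of the m6A writer and eraser listed with it, 3 rose and 1 fell, beside 15.7% and 23.9% of all loci. WTAP, the adaptor that holds the writer together, rose from 3916 ± 21 to 7410 ± 137 (SD, n = 3; log2 fold change 0.92). ALKBH5, which removes the mark, rose from 9630 ± 332 to 18794 ± 348 (log2 fold change 0.96), and METTL14, the RNA-binding subunit of the catalytic pair, from 723 ± 19.8 to 1215 ± 142 (log2 fold change 0.74). METTL3, the catalytic subunit itself, fell from 1467 ± 133 to 912 ± 11.1 (log2 fold change -0.68). The adjusted p-values of these 4 lay between 3.29e-12 and 6.43e-07 in limma, and those that rose were no longer called with RPL34 scaling (log2 fold change 0.25 to 0.47), METTL14 not with the same total either (0.50). The subunits VIRMA (0.41), CBLL1 (0.23) and ZC3H13 (-0.55, 1.46-fold) were not called with the deposited values.

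Among the 6 members that act at the 3′ splice site, with the U2 particle or in alternative splicing, only RBM23 was regulated by the threshold. RBM39 and RBM23 are paralogs related to the splicing factor U2AF2, and both are known as targets of aryl sulfonamide degraders. RBM23 (chr14:22893204-22919165) had 2076, 2001 and 2029 normalized reads in DMSO and 543, 601 and 596 in THZ531. It fell 3.51-fold (log2 fold change -1.81, SE 0.066, adjusted p = 2.22e-12), and each THZ531 library was below each DMSO library. RBM39, the third highest member by mean level, was at 11154, 10882 and 10983 in DMSO and at 14053, 13608 and 13857 in THZ531. These groups did not overlap either, but the 1.26-fold difference was under the threshold. The RBM39 to RBM23 log2 ratio moved from 2.43 ± 0.009 to 4.57 ± 0.103 (SD, n = 3), a shift of 2.14 (exact permutation p = 0.1). Both genes lie inside the longer span of a same-strand neighbour in the annotation, RBM23 in that of DAD1 (log2 fold change 0.15) and RBM39 in that of NFS1 (-0.54), and how reads on both were counted was not given in the sources used here.

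The other 4 of this group were not called with the deposited values. RBM5 and RBM10 are related splicing regulators known as tumour suppressors in lung, RBM6 is their relative and neighbour of RBM5 on chromosome 3, and RBM17 recognizes 3′ splice sites. Log2 fold changes were 0.13 for RBM5, 0.36 for RBM6, 0.33 for RBM17 and -0.25 for RBM10, with adjusted p from 3.57e-07 to 0.015, and with RPL34 scaling RBM5, RBM6 and RBM17 had a negative sign and RBM10 was called lower (-0.74). The RBM5 to RBM10 log2 ratio was between 0.07 and 0.12 in DMSO and between 0.45 and 0.51 in THZ531 (shift 0.38, exact permutation p = 0.1), and that of RBM5 to RBM6 shifted by -0.23 (p = 0.1, exact permutation test).

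Of 8 partner genes at the 3′ splice site 7 were tested. U2AF2, which binds the polypyrimidine tract, rose from 15582 ± 78.4 to 23455 ± 526 (1.51-fold, barely inside the threshold and not called with edgeR, without THZ531 replicate 1, with the same total, with the upper quartile or with RPL34). PUF60, its relative, rose from 13486 ± 703 to 21349 ± 309 (n = 3, log2 fold change 0.66), and was not called with the same total or RPL34. U2AF1, the subunit that reads the AG, was called lower (log2 fold change -0.99, adjusted p = 0.0153 in limma), but its values were 1061, 969 and 511 in DMSO and 212, 399 and 786 in THZ531. These groups overlapped, the gene is present in hg38 as near-identical copies, and the call was lost with DESeq2 (adjusted p = 0.194), without DMSO replicate 2 (-0.86) and without THZ531 replicate 1 (-0.53). SF1, SUGP1, DHX15 and CHERP were not called with the deposited values, with CHERP at 1.49-fold. SF3B1, a gene every cell uses, was listed at no more than 1.26 in each library, which says nothing of its expression.

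Of the 5 members in the spliceosome, with the U1 particle or at the exon junction, 1 rose. RBM25, which acts with U1 on the choice of 5′ splice sites, was at 2689, 2740 and 2843 in DMSO and at 4650, 4380 and 4389 in THZ531. The groups were apart, with a rise of 1.62-fold (log2 fold change 0.70, SE 0.046, adjusted p = 1.49e-09), and the call was lost with the same total (log2 fold change 0.45). RBM22, which sits at the catalytic centre of the spliceosome, was at 3605, 3810 and 3847 in DMSO and at 4848, 4567 and 4482 in THZ531, also without overlap but with a log2 fold change of only 0.30. RBM8A, the Y14 subunit of the exon junction complex, was among the highest members at 11005 ± 384 in DMSO and 9821 ± 234 in THZ531 (log2 fold change -0.16). It was called lower with RPL34 (-0.66), and it lies inside the span of NOTCH2NLA on the same strand (log2 fold change 1.21). RBM42 and RBMX2 overlapped between groups (log2 fold change -0.04 and -0.08). None of the 5 exon junction partners was called, with log2 fold changes of -0.01 for MAGOH, -0.11 for MAGOHB, 0.08 for CASC3, 0.39 for RNPS1 and 0.47 for EIF4A3.

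The minor spliceosome removes a rare class of introns, and RBM41 and RBM48 both belong to it. RBM48, which works as a pair with ARMC7, had values of 510, 499 and 518 in DMSO and of 335, 250 and 284 in THZ531. Its fall of 1.77-fold (log2 fold change -0.82, SE 0.12, adjusted p = 9.62e-06) was without overlap. RBM41, which binds the U12 RNA, stood at 536, 547 and 604 in DMSO and at 736, 765 and 774 in THZ531, higher in each library but not called (log2 fold change 0.43). The log2 ratio of RBM41 to RBM48 accordingly shifted by 1.25, from 0.14 ± 0.076 to 1.39 ± 0.24 (SD, n = 3, exact permutation p = 0.1). ARMC7, the partner of RBM48, fell as well, 2766 ± 130 in DMSO against 1077 ± 95 in THZ531 (n = 3, log2 fold change -1.36, limma adjusted p = 5.21e-11). With the deposited values ARMC7 was the only 1 of 10 minor spliceosome partners called. SCNM1 was at -0.57, and the other 8 lay between -0.21 for SNRNP35 and 0.50 for SNRNP48.

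RBMX, the nuclear ribonucleoprotein hnRNP G, and its retrogene RBMXL1 were not called. RBMX was at 6313 ± 315 in DMSO and 4562 ± 223 in THZ531 (SD, n = 3), with a log2 fold change of -0.47 and no overlap, and it was called lower with the same total (-0.71) and with RPL34 (-0.96). The joint locus of KYAT3 and RBMXL1 was at 972 ± 84.6 and 932 ± 30.9, with overlapping groups. As a result the log2 ratio of RBMX to that locus shifted by -0.41 (exact permutation p = 0.1). This value is uncertain because the locus includes KYAT3. The copies themselves shared few windows of 150 bases, 0.161% of those in the RBMX transcript.

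All 3 adaptors of the nuclear exosome were higher in every THZ531 library than in any DMSO library, and 1 of the 3 passed the threshold. Of all loci, 71.7% had groups that did not overlap, a share that counts both directions. RBM27, which with its paralog RBM26 is found with the exosome targeting complex on polyadenylated RNA, was at 4437, 4653 and 4674 in DMSO and at 8823, 8359 and 8324 in THZ531. This was a rise of 1.85-fold (log2 fold change 0.89, SE 0.041, adjusted p = 2.76e-11), not called with RPL34 (0.40). RBM26 had 1718, 1796 and 1885 in DMSO and 2635, 2405 and 2689 in THZ531 (log2 fold change 0.52), and RBM7, the RNA-binding subunit of the NEXT complex, had a log2 fold change of 0.44. With RPL34 scaling these were 0.02 and -0.05. The log2 ratio of RBM26 to RBM27 shifted by -0.37 (exact permutation p = 0.1), and that of RBM7 to RBM26 overlapped between groups (-0.08, exact permutation p = 0.6). Of 6 exosome partners, the zinc finger gene ZC3H3 fell, with 2461 ± 163 in DMSO and 1401 ± 35.5 in THZ531 (n = 3, log2 fold change -0.81, limma adjusted p = 4.6e-09). The helicase MTREX (0.10), ZCCHC8 (0.13), PABPN1 (0.07), ZFC3H1 (0.39) and ZC3H18 (-0.36) were not called with the deposited values.

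The neighbours RBM14 and RBM4 on chromosome 11 were among the highest members and both rose. RBM14 is a component of paraspeckles, nuclear bodies built on a long noncoding RNA, and a transcriptional coactivator. Its locus (chr11:66616626-66629919) had values of 10798, 10521 and 10819 in DMSO and of 28001, 27561 and 26961 in THZ531. The rise of 2.57-fold (log2 fold change 1.36, SE 0.033, adjusted p = 3.16e-14) was far larger than the spread between samples, and under other scalings the log2 fold change was 1.12 (same total) and 0.87 (RPL34). RBM4, a regulator of splicing and translation, was at 8463, 9087 and 8832 in DMSO and at 14216, 13701 and 13535 in THZ531, apart and 1.57-fold higher (log2 fold change 0.65, adjusted p = 4.06e-10). RBM4B, its copy on the other strand, had 765, 892 and 795 in DMSO and 839, 803 and 854 in THZ531, with overlap (log2 fold change 0.03, adjusted p = 0.76). The 2 loci share 3387 bases on opposite strands, and the counting is not stated to use strand. Ratios of RBM4 to RBM4B (shift 0.62) and of RBM14 to RBM4 (0.71) were higher in every THZ531 library (exact permutation p = 0.1 each).

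Among the other paraspeckle proteins PSPC1 rose, with 3037 ± 229 in DMSO and 7216 ± 121 in THZ531 (n = 3, log2 fold change 1.25, limma adjusted p = 7.38e-12), and it was called under each scaling. NONO (0.33) and SFPQ (0.12) were not called, and NEAT1, the RNA scaffold, was not matched to a row by its symbol.

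**Figure D3:**
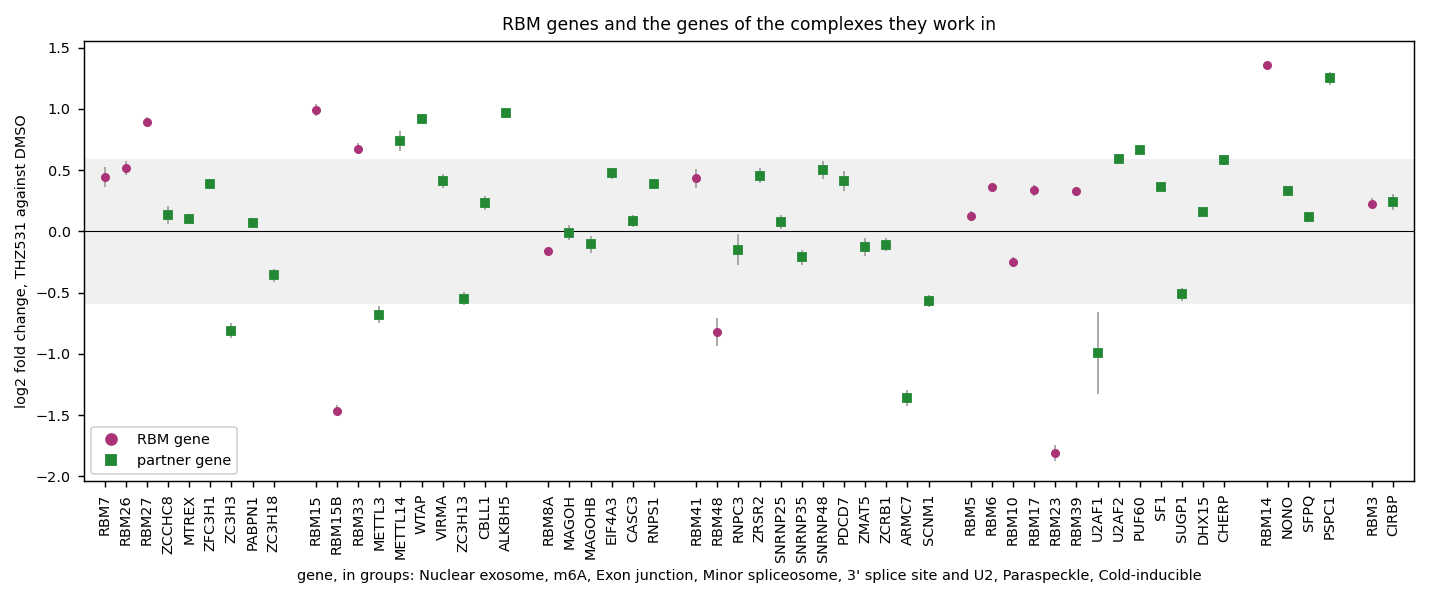
Log2 fold change, THZ531 against DMSO, with its standard error (n = 3 per group) for RBM genes (circles) and the 39 tested partner genes (squares), in groups from left to right as named under the axis; the shaded band covers fold changes under 1.5. RBM15B (-1.47) and RBM23 (-1.81) lie lowest, ARMC7 (-1.36) lies beside RBM48 (-0.82), and RBM14 (1.36) and PSPC1 (1.25) lie highest.

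Of all 41 partner genes 39 were tested and 10 were called (25.6%, against 39.5% of all loci). Of these 6 rose and 4 fell, against 15.7% and 23.9% of all loci, and the median log2 fold change was 0.13 against -0.01 over all loci. These counts, and the partners given above as not called, are for the deposited values. With the same total 3 rose and 8 fell, against 9.38% and 32% of all loci. With RPL34 1 rose and 13 fell, against 6.14% and 42.8%. Some partners given above as not called were thus called lower under these scalings. The plot of partners beside the RBM genes shows that called partner genes were scattered over 5 of the 7 groups. Most partner genes of a group stayed inside the band, except in the m6A group, where 4 of 7 were called.

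The 3 nucleolar members, which act in ribosome assembly, were not called. RBM28 was closest to the threshold, at 4353 ± 72.8 in DMSO and 6362 ± 87.5 in THZ531 (SD, n = 3; log2 fold change 0.55), RBM34 had a log2 fold change of -0.24 and was called lower with RPL34 (-0.73), and RBM19 was at 0.05 with overlapping groups. RBM3, which cells induce in the cold, had a log2 fold change of 0.23, close to that of CIRBP, the other cold-inducible RNA-binding gene, at 0.24. Both were below the threshold, and RBM3 was at -0.02 with the same total.

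The 6 genes with roles in mRNA stability or tissue-restricted splicing were mostly low. RBM38, a p53 target that binds mRNAs to change their stability, was the exception, with 5818, 5973 and 5750 in DMSO and 6753, 6896 and 6953 in THZ531. Its groups were apart, with a log2 fold change of 0.23 that was -0.01 with the same total. RBM24, a muscle splicing factor, had 12, 2 and 12 reads in DMSO and 26, 26 and 32 in THZ531, or normalized values of 9.53, 1.86 and 9.57 and of 32.7, 29.6 and 36.4. The THZ531 values were all higher, but no DMSO value reached the minimum of 10, so the gene was tested only because it was higher in THZ531, and its fold change is given as a description with no test. The log2 fold change was 2.31 with a pseudocount of 1, 2.54 with 0.1 and 1.37 with 10, and without DMSO replicate 2, which had 2 reads, it was 1.68. RBM20, known for the splicing of titin in heart, had 28, 66 and 38 reads in DMSO and 6, 10 and 30 in THZ531, or values of 22.2, 61.2 and 30.3 and of 7.56, 11.4 and 34.1. Here the groups overlapped, and the log2 fold change of -1.20 (SE 0.53, adjusted p = 0.0542) was not called by edgeR (adjusted p = 0.0738) or DESeq2 (0.0787), nor without DMSO replicate 2 (-0.80), THZ531 replicate 1 (-0.77) or THZ531 replicate 2 (-1.04). Over the fits run, its adjusted p reached 0.263. RBM11 was at 71.2 ± 10.4 and 99.4 ± 18.5 (n = 3) and was not called except without THZ531 replicate 1 (log2 fold change 0.59). The log2 ratio of RBM38 to RBM24 shifted by -2.08, a description that carries the same few reads.

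In the RBMS family, whose members bind AU-rich stretches of DNA and RNA, RBMS3 stood apart from the other two. RBMS3 (chr3:29281071-30010395), the longest member with a transcript span of 729316 bases, had values of 132, 123 and 148 in DMSO and of 32.7, 35.2 and 5.69 in THZ531. It fell 6.71-fold (log2 fold change -2.75, SE 0.48, adjusted p = 9.44e-05) with no overlap. THZ531 replicate 3 had 5 reads against 26 and 31 in the other two, and without it the log2 fold change was -1.95, which is still past the threshold. With all libraries, edgeR gave RBMS3 a smaller log2 fold change of -2.48 and DESeq2 one of -2.46. RBMS1 was at 2519, 2747 and 2988 in DMSO and at 3086, 3161 and 3059 in THZ531 (log2 fold change 0.18), and RBMS2 at 3594 ± 395 and 3998 ± 51.5 (0.16). Accordingly the log2 ratio of RBMS1 to RBMS3 shifted by 2.92 (exact permutation p = 0.1), between 4.25 and 4.47 in DMSO and between 6.45 and 8.84 in THZ531. That of RBMS1 to RBMS2 overlapped and shifted by 0.02 (exact permutation p = 0.9).

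Of the 5 less studied members 3 were regulated. The joint locus of CPNE1 and RBM12 was the highest of all, with 22309, 21254 and 21919 in DMSO and 44909, 43570 and 43901 in THZ531. It rose 2.02-fold (log2 fold change 1.02, SE 0.033, adjusted p = 5.6e-13), and how much of this was RBM12 and how much CPNE1 cannot be told apart. RBM12B was at 3841, 4404 and 4187 in DMSO and at 2969, 3252 and 3256 in THZ531, lower in every library but not called (log2 fold change -0.39), and called lower with the same total (-0.63). The log2 ratio of RBM12B to the joint locus shifted by -1.41 (exact permutation p = 0.1). RBM18 stood at 2560, 2508 and 2492 in DMSO and at 4304, 4267 and 4150 in THZ531. It rose 1.68-fold (log2 fold change 0.75, SE 0.044, adjusted p = 3.8e-10), but was at 0.51 with the same total and then not called, and it overlaps MRRF on the other strand by 238 bases. RBM43 was at 226, 269 and 324 in DMSO and at 85.6, 98.9 and 100.1 in THZ531. The groups were apart, and RBM43 fell 2.84-fold (log2 fold change -1.50, SE 0.17, adjusted p = 8.75e-07). RBM45, an RNA-binding gene found in protein aggregates of motor neuron disease, overlapped between groups (log2 fold change -0.06).

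Over the 15 pairs compared, the libraries of the 2 groups did not overlap in their log2 ratio for 13, each with an exact permutation p of 0.1 (0.115 after Benjamini-Hochberg adjustment over 15). No pair could reach 0.05 with 3 samples against 3, and one of the 13 is RBM38/RBM24, where RBM24 was listed as tested only through its THZ531 values. The largest shifts were those of RBMS1/RBMS3, RBM15/RBM15B and RBM39/RBM23 upward and of RBM38/RBM24 and RBM12B/RBM12 downward.

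**Figure D4:**
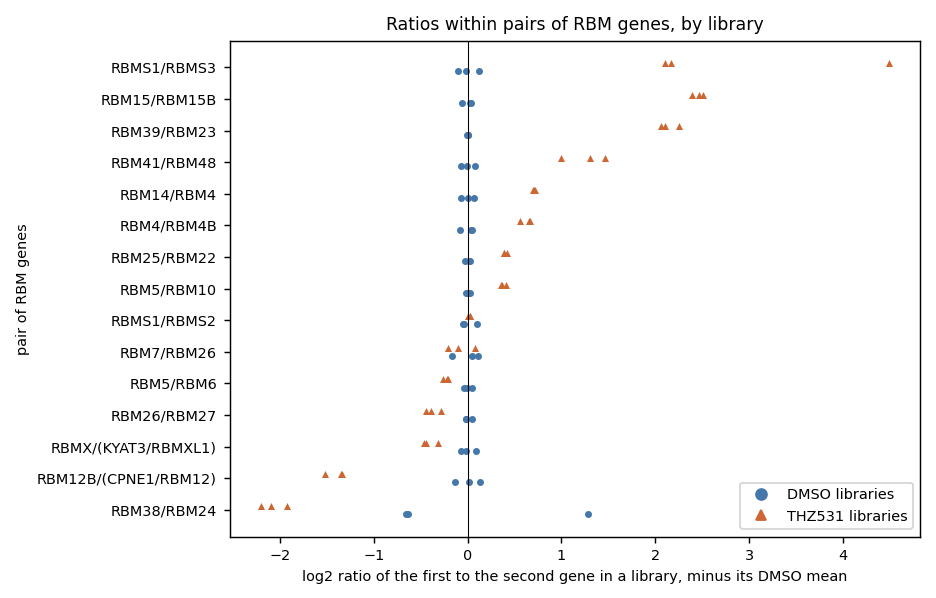
Log2 ratio of the normalized values of 2 RBM genes in each library, less the mean of the 3 DMSO libraries, for the 15 pairs compared (circles DMSO, triangles THZ531). RBM15/RBM15B (shift 2.46) and RBM39/RBM23 (2.14) have tight groups far apart, RBMS1/RBMS3 (2.92) has 1 THZ531 library far from the other two, RBM38/RBM24 (-2.08) has 1 DMSO library apart, and RBMS1/RBMS2 (0.02) and RBM7/RBM26 (-0.08) overlap.

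Loci without a symbol lay inside 11 RBM genes, 17 in all, and most had no or few reads. Of these, 2 were tested. The first lies in intron 1 of RBM14 (chr11:66618854-66618881, hg38), 1797 bases after the 5′ splice site, and was singled out after its values were seen. It is shown with 60 bases on each side, the locus itself in capitals, because RBM14 was the RBM gene of high level that rose most.
RBM14 intron 1 locus: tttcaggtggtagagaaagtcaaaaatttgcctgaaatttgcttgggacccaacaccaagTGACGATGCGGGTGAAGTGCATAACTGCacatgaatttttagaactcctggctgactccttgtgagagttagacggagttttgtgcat
This stretch of 28 bases had 6, 5 and 5 reads in DMSO and 14, 13 and 13 in THZ531 (log2 fold change 1.61). It passed the minimum only through the THZ531 libraries, so this is a description with no test. Of the 1260 unnamed loci tested inside exactly 1 named gene, 40.3% rose. The other locus, in intron 6 of RBM34, had 1, 18 and 4 reads in DMSO and 2, 19 and 16 in THZ531, which overlap.

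The size of an RBM gene showed little relation to its change. Across the 38 tested members listed alone, Spearman's rho with the log2 fold change was 0.07 for the transcript span, 0.09 for the longest intron, 0.22 for the first intron and -0.01 for the number of exons, against -0.06, -0.07, -0.05 and -0.01 over 14591 genes. Genes share libraries and are not independent replicates, so these are descriptions. The members that fell ranged from the single exon of RBM15B, with a span of 6624 bases, to the 15 exons of RBMS3, and those that rose had spans from 7301 bases (RBM15) to 136820 bases (RBM33). The median DMSO level was 391 for the 6 that fell, 3673 for the 8 that rose and were listed alone, and 4029 for the 24 that were not called.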

How the data were processed

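PolyA RNA-seq of OVCAR3 cells was analysed, 3 DMSO and 3 THZ531 libraries. The authors mapped reads to hg38 with STAR (version 2.7.5a in the submitters' processing notes), counted them with featureCounts on FAST DB loci and deposited DESeq2-normalized values, a signal that is never negative and not corrected for length. Whole reads were recovered for 100% of the values within a tolerance of 0.1 read. Members, lists and pairs were chosen with earlier results of these data known. The values were tested as log2(value + 1) with limma 3.58.1 (trend, R 4.3.3) over the 17568 loci that reached 10 in 3 or more libraries, and Benjamini-Hochberg adjustment covered them all. Per-library values are given for regulated members, the 3 highest, and both genes of a pair with a regulated one. Alternatives were pseudocounts of 0.1 and 10, other minima, scalings, a replicate block, edgeR 4.0.16, DESeq2 1.42.0 and leaving out each library. On simulated counts for 15163 genes, each tool called 200 of 200 changed genes, and of 14963 unchanged ones limma called 57, edgeR 56 and DESeq2 11. The planted changes were well past the threshold and only in genes above a minimum mean level. The check therefore does not bear on changes near the threshold, on changes of low genes or on the scaling. Promoters are from RefSeq, and transcripts from GENCODE. A further partner gene, beyond the 41 counted, is not reported here.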

Additional observations from a re-analysis of the deposited data

How the results depend on the processing

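The number of regulated RBM genes, 15, was between 13 and 15 under the alternatives that kept a fold change of 1.5, and 8 at a fold change of 2 (3 rose, 5 fell). The 13 at equal totals lacked 4 of the 15, and the 13 with RPL34 lacked 7. Of 9 that rose, equal totals left 5 and RPL34 scaling 2, and instead of 6 that fell, RPL34 gave 11. RBM24, tested only through its THZ531 libraries, is among the genes that rose in each of these counts and at a fold change of 2. Leaving out 1 library gave 14 to 15 regulated, 9 to 10 higher and 5 to 6 lower, with RBM20 lost and RBM11 gained. For the 10 partner genes, a fold change of 2 left 2 (1 rose, 1 fell). Equal totals gave 3 that rose and 8 that fell (6 and 4 as deposited), RPL34 1 and 13. Leaving out 1 library gave 8 to 11 partners. The count of called unnamed loci inside an RBM gene, 1 as deposited, was 0 at a minimum of 50 and with RPL34, and 1 to 2 without 1 library. That locus passed the minimum only through its THZ531 libraries, so these counts are a description.

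The sign of members near 0 turned with scaling. The median of the RBM genes was -0.042 at equal totals and -0.29 with RPL34. At equal totals, log2 fold changes were -0.21 for RBM4B, -0.19 for RBM19, -0.12 for RBM5, -0.084 for RBMS2, -0.066 for RBMS1, -0.017 for RBM3 and -0.011 for RBM38. Under RPL34 these were -0.46, -0.44, -0.37, -0.33, -0.32, -0.27 and -0.26, and RBM22 was at -0.19, RBM39 at -0.16, RBM17 at -0.16, RBM6 at -0.13, RBM41 at -0.060, RBM7 at -0.052 and RBM11 at -0.017. When each library was left out in turn, values ranged from -0.11 to 0.030 for RBM45, -0.10 to 0.013 for RBMXL1, -0.066 to 0.0059 for RBM42, -0.018 to 0.093 for RBM4B and -0.010 to 0.066 for the RBMS1 to RBMS2 log2 ratio, and DMSO replicate 1 turned each sign (the ratio to -0.0044), DMSO replicate 3 also that of the ratio. With the replicate block 15 RBM genes (9 rose, 6 fell), 10 partners and 13 pairs were called, as without it. A pairing by replicate number was not seen, as the deviations of same-numbered libraries correlated at 0.0017, 0.0186 and -0.0393. With 3 samples a group, this cannot exclude that same-numbered samples were handled together. Members under 100 normalized reads in a group (RBM11, RBM20, RBM24, and RBM43 and RBMS3 in THZ531) are most limited by counting error, and 3 samples a group limit the exact tests to p = 0.1.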
